A study of Mus musculus with 8 samples.

Results

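The genes described here are 44 enzymes, transporters and assembly factors of fatty acid oxidation, fatty acid synthesis and the peroxisome. They were chosen by name, from their known roles, but with earlier results of these data known. The shares of members called below are thus no independent result. Each gene was read from the array row that carries its symbol alone. Of the 44 genes, 42 were measured, out of 19938 genes in all. Acsl1 and Acsl3, which activate long-chain fatty acids, had no row naming them alone in the table used and were not analysed here. If several rows carried 1 symbol, that with the highest mean was taken.

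The series measured RNA from XCR1+ dendritic cells, the cross-presenting subset of conventional dendritic cells, sorted from the spleen of mice that had received no treatment. All samples came from mice carrying an EYFP reporter for Il12b, which encodes a subunit of interleukin 12. The sort took lineage-negative cells with high CD11c, little or no Bst2 and surface CD8α, and then split them by the chemokine receptor CCR7 and by the reporter. Each sample was read on 1 array, so no count or depth belongs to a value. The immature group (n = 3) lacked both CCR7 and the reporter. The first matured group, CCR7+Il12b- (n = 3), carried CCR7 without the reporter, and the second, CCR7+Il12b+ (n = 2), carried both. The labels call the matured cells homeostatically matured, and the reporter alleles were shared by all 3 groups. The sources used here do not give the age, sex or number of the mice. Whether replicates are separate mice is not stated in the labels, and p-values thus reflect only the spread among these samples, possibly a technical one.

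Mitochondria shorten fatty acids step by step in beta-oxidation. Long chains are first joined to coenzyme A and carried across the inner membrane as carnitine esters, and each cycle of dehydrogenation, hydration, dehydrogenation and thiolysis passes electrons on, in part through the electron transfer flavoprotein. Peroxisomes shorten very long and branched chains with their own enzymes, and build their membrane and import their matrix proteins through the peroxins. Synthesis runs the other way in the cytosol, and elongases and desaturases then shape the chains for membranes. Dendritic cells activated by microbial ligands are known to shift from fatty acid oxidation towards glycolysis.

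Values are log2 expression values, and a change is the difference of 2 group means with the standard error (SE) of the limma fit. Genes with an adjusted p under 0.05, after adjustment over all 19938 genes, were called. In CCR7+Il12b- cells 20 of the 42 members fell against immature cells (47.6%), where 14.5% of all genes were called lower. Another 3 members rose (7.14%), against 9.1% of all genes called higher, and 19 were not called. The median change of the members was -0.32, beside 0.06 over all genes tested.

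In CCR7+Il12b+ cells 21 members fell (50%) and 4 rose (9.52%), while 17 were not called. Over all genes 17.9% were called lower and 14.1% higher in this comparison. The median change was -0.37, beside 0.09 over all genes. Among the 12934 genes with a group mean above the background mark of 4.98, which 41 of the 42 members also passed, 22.1% were called lower in CCR7+Il12b- and 27.1% in CCR7+Il12b+. Both comparisons use the same 3 immature samples and are not independent of each other.

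Every CCR7+Il12b- sample lay below every immature sample for 24 members and above for 3, where 19.2% of all genes lay below and 22.1% above. Every CCR7+Il12b+ sample lay below for 26 members and above for 6, against 23.6% and 33.5% of all genes. The median over the members was 6.91, 7.06 and 7.15 in the immature samples, 6.64, 6.80 and 6.67 in CCR7+Il12b-, and 6.69 and 6.60 in CCR7+Il12b+. The immature medians did not overlap with those of the matured samples. In RNA from sorted pools, fewer cells of a type and less RNA per cell cannot be told apart.

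**Figure D1:**
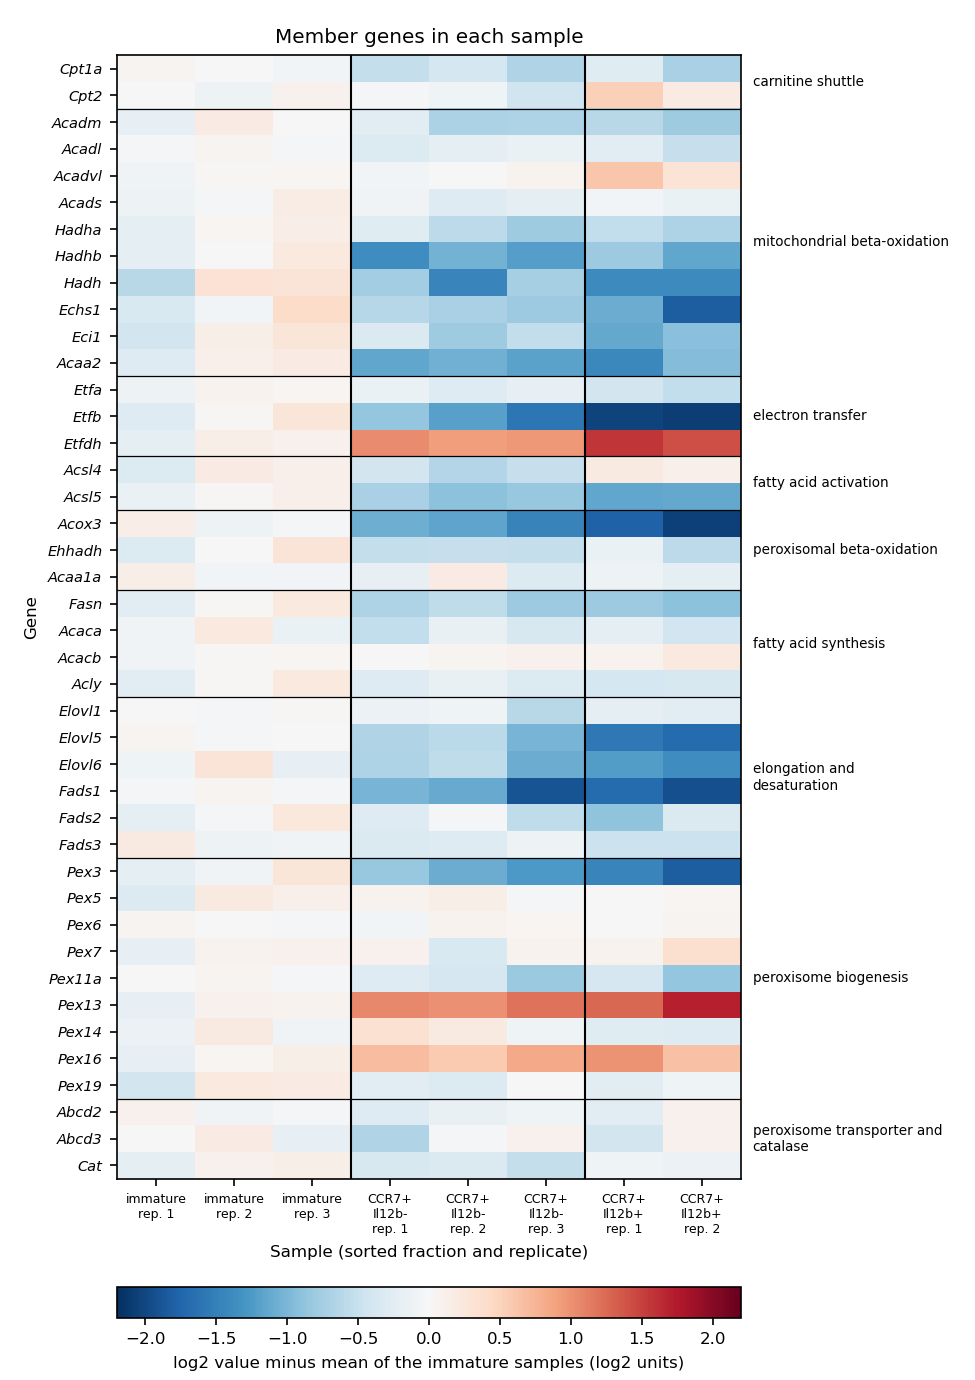
Each cell of the map is the log2 value of 1 member gene in 1 sample minus the mean of the 3 immature samples, with genes in rows by role and the 8 samples in columns. Etfdh, Pex13 and Pex16 are red in every matured sample, while Etfb, Acox3, Fads1 and Pex3 are blue in every one.

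Array medians over all rows ran from 5.253 to 5.325 in immature, 5.358 to 5.412 in CCR7+Il12b- and 5.395 to 5.456 in CCR7+Il12b+ samples. Every matured array thus lay above every immature one, and the median gene was higher by 0.06 and 0.09 in matured cells. All 12 markers of XCR1+ dendritic cells were above the mark in every group. Of these, 6 (Xcr1, Clec9a, Irf8, Tlr3, Cadm1 and Itgae) were lower in every matured than in every immature sample, 3 (Batf3, Ly75 and Zbtb46) were higher, and 3 overlapped. Xcr1 ran from 10.82 to 10.98, 8.936 to 9.848 and 7.642 to 8.124, and Ly75 from 8.026 to 8.112, 10.03 to 10.49 and 10.63 to 10.76. Their summed level, as log2, ran from 13.91 to 14.01 in immature, 13.61 to 13.79 in CCR7+Il12b- and 13.2 to 13.41 in CCR7+Il12b+ samples. Of 10 measured macrophage and monocyte markers 6 passed the mark, and their sum was 8.713 to 9.106 in immature samples, 10.79 to 11.26 in CCR7+Il12b- and 11.1 to 11.35 in CCR7+Il12b+. Spic, Vcam1 and C1qa were higher in every matured sample than in every immature one. By contrast, Cd5l, Vsig4, C1qc and Mertk lay below the mark in every group. Csf1r read 5.574 to 6.081 in immature, 5.438 to 5.69 in CCR7+Il12b- and 5.233 to 5.339 in CCR7+Il12b+ samples. C1qa ran from 5.139 to 5.206 in immature and from 5.235 to 5.578 in matured samples. Adgre1 read 4.439 to 4.838 in immature, 5.266 to 5.45 in CCR7+Il12b- and 4.722 to 4.786 in CCR7+Il12b+ samples. C1qb lay between 4.921 and 5.699, and its matured samples overlapped with the immature ones. B cell markers summed to 8.063 to 8.361, 9.023 to 9.518 and 8.56 to 8.643, with 3 of 6 above the mark and Cd79a below it everywhere. Ms4a1 ran from 6.958 to 7.033 in immature, 8.282 to 8.911 in CCR7+Il12b- and 7.7 to 8.099 in CCR7+Il12b+ samples. Cd79b ran from 6.065 to 6.841, 6.856 to 7.175 and 5.72 to 6.016. Pax5 lay between 5.057 and 5.871, and its matured samples overlapped with the immature ones. CD11b+ dendritic cell markers, 5 of 7 above the mark, summed to 8.666 to 9.121, 9.202 to 9.495 and 8.617 to 8.787. Plasmacytoid dendritic cell markers, 6 of 6 above the mark but 5 in CCR7+Il12b+, summed to 9.152 to 9.294, 8.544 to 8.75 and 8.315 to 8.388. Siglech, Ccr9 and Tcf4 were lower in every matured than in every immature sample, and Ly6d, Pacsin1 and Cox6a2 overlapped. T cell (3 of 6 above the mark), NK cell (1 of 7), neutrophil (5 of 7) and erythroid markers (3 of 3) summed to between 6.806 and 7.887 in every sample. Where no group is named, counts above the mark are of markers whose mean passed it in at least 1 group. The part of these cell types in the results was not tested.

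Of the carnitine shuttle, 1 of 2 genes was called, lower in both matured groups (50%). Over all genes 14.5% and 17.9% were called lower, and 22.1% and 27.1% among genes above the mark. Cpt1a, which loads long chains onto carnitine, fell by 0.53 ± 0.13 in CCR7+Il12b- (adjusted p = 0.0131) and by 0.49 ± 0.15 in CCR7+Il12b+ (adjusted p = 0.0253). Its values did not overlap between immature and matured samples, and the 2 matured groups overlapped. Cpt2, which moves the chain back onto coenzyme A inside the mitochondrion, was not called, with changes of -0.19 (95% interval -0.498 to 0.125) and 0.35 (0.00271 to 0.7). The call of Cpt1a was lost without CCR7+Il12b- replicate 3 in the first comparison (adjusted p = 0.0509). In the second it was lost without any 1 immature replicate or else CCR7+Il12b+ replicate 2 (adjusted p up to 0.258).

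The 4 acyl-CoA dehydrogenases, which open each cycle and differ in the chain length they prefer, did not move as one. Acadm, for medium chains, read 7.31, 7.67 and 7.51 in immature samples, 7.24, 6.80 and 6.82 in CCR7+Il12b- and 6.89 and 6.72 in CCR7+Il12b+. Both matured groups lay below the immature group, by 0.54 ± 0.14 (adjusted p = 0.0184) and by 0.69 ± 0.16, or 1.62-fold (adjusted p = 0.00637). Acadl, for long chains, changed by -0.22 ± 0.11 (adjusted p = 0.178) and fell by 0.38 ± 0.12 in CCR7+Il12b+ (adjusted p = 0.0328). Acadvl, for very long chains, was the one member of mitochondrial beta-oxidation that rose in CCR7+Il12b+, by 0.46 ± 0.12 (adjusted p = 0.0156). In CCR7+Il12b- its change was -0.00 (95% interval -0.248 to 0.244), and the matured groups differed by 0.46 ± 0.12 without a call (adjusted p = 0.052). Acads, for short chains, was not called, with -0.18 (-0.429 to 0.0617) and -0.11 (-0.38 to 0.168). The CCR7+Il12b- call of Acadm was lost without immature replicate 2 or 3 or else CCR7+Il12b- replicate 2 or 3 (adjusted p up to 0.0892), and its CCR7+Il12b+ call without CCR7+Il12b+ replicate 2 (adjusted p = 0.0623). The Acadl call was lost without any 1 immature replicate or else CCR7+Il12b+ replicate 2 (up to 0.24), with cyclic loess normalization and with an intensity trend, and the Acadvl call without CCR7+Il12b+ replicate 1 (0.11) or with arrays centred on their medians.

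Downstream of the dehydrogenases, the 6 members for hydration, second dehydrogenation, thiolysis and isomerisation fell in both matured groups. Other enzymes of these steps are counted in the further lists below, where not all were called. Hadha and Hadhb encode the alpha and beta subunits of the mitochondrial trifunctional protein, which carries out the last 3 reactions of the cycle on long chains. Hadhb read 7.82, 8.05 and 8.25 in immature samples, 6.67, 7.01 and 6.83 in CCR7+Il12b-, and 7.24 and 6.89 in CCR7+Il12b+. Every matured sample was lower than every immature one, and the matured groups overlapped. The fall was 1.21 ± 0.15, or 2.31-fold, in CCR7+Il12b- (adjusted p = 0.000162) and 0.98 ± 0.16, or 1.97-fold, in CCR7+Il12b+ (adjusted p = 0.000715). The second row of Hadhb gave changes of -1.25 and -0.99. Hadha read 8.75, 9.001 and 9.10, then 8.68, 8.38 and 8.17, then 8.41 and 8.27. Its groups were apart by a small margin in the first matured group, and the falls were 0.54 ± 0.14 (adjusted p = 0.0186) and 0.61 ± 0.16, or 1.53-fold (adjusted p = 0.0127). The first call of Hadha was lost without immature replicate 2 or 3 or else CCR7+Il12b- replicate 2 or 3 (adjusted p up to 0.0859), and the second without immature replicate 3 or else CCR7+Il12b+ replicate 2 (up to 0.0935).

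Hadha and Hadhb lie head to head, with their starts 273 bases apart on opposite strands, so that the upstream window of each leads to the other gene. The window of Hadhb is shown because both subunits of 1 enzyme fell with this stretch between them. It spans chr5:30155003-30155302 on the plus strand of GRCm38.p6 in RefSeq, from 250 bases before to 50 bases after the start, and capitals mark GC boxes (GGGCGG, searched on both strands).
Hadhb: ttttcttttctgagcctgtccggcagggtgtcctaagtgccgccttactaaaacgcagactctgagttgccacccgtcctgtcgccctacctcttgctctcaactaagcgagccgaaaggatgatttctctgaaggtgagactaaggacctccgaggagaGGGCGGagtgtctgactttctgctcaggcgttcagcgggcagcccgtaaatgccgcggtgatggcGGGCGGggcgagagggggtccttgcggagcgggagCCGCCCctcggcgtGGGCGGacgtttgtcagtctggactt
There were 4 GC boxes, with first bases at -90, -25, 11 and 25 from the start. Of the 38 members with a promoter listed by RefSeq, 27 held a GC box (71.1%), against 35.7% of all 32851 promoters of the same length. Here and for the motifs below, members were counted as genes and the background as single promoters. The background was not limited to genes above the mark, so the shares are not like for like. Whether they differ from those of similar genes was not tested. Among members that fell in at least 1 comparison with immature cells 15 of 22 held one, and among those that rose 3 of 4.

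Hadh, the dehydrogenase for shorter hydroxyacyl chains, read 5.81, 6.73 and 6.71 in immature samples, 5.65, 4.97 and 5.69 in CCR7+Il12b-, and 5.02 in both CCR7+Il12b+ samples. Immature replicate 1 lay close to the matured samples, but no matured sample reached the immature ones, and the matured groups overlapped. Hadh fell by 0.98 ± 0.25, or 1.97-fold (adjusted p = 0.0144), and by 1.40 ± 0.28, or 2.64-fold (adjusted p = 0.00238). Echs1, the enoyl-CoA hydratase for short chains, read 6.33, 6.61 and 7.07, then 6.05, 5.96 and 5.87, then 5.59 and 4.85. All 3 groups were apart, with the CCR7+Il12b+ samples lowest. The falls were 0.71 ± 0.21, or 1.64-fold (adjusted p = 0.0291), and 1.45 ± 0.23, or 2.74-fold (adjusted p = 0.000537), and the step between the matured groups, -0.74 ± 0.23, was not called (adjusted p = 0.0919). The CCR7+Il12b- call was lost without immature replicate 2 or 3 or else CCR7+Il12b- replicate 2 for both genes, and for Echs1 also without CCR7+Il12b- replicate 3 (adjusted p up to 0.0678 for Hadh and 0.1225 for Echs1).

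Eci1 shifts double bonds so that unsaturated chains can enter the cycle. It read 6.43, 6.97 and 7.11 in immature samples, 6.51, 6.05 and 6.30 in CCR7+Il12b-, and 5.71 and 5.92 in CCR7+Il12b+. Immature replicate 1 overlapped with CCR7+Il12b-, and the CCR7+Il12b+ samples were lowest. The fall in CCR7+Il12b+ was 1.03 ± 0.20, or 2.04-fold (adjusted p = 0.0021). That in CCR7+Il12b- was 0.55 ± 0.18 (adjusted p = 0.0472), and its call was lost without any 1 of 6 samples, namely immature replicates 2 and 3, CCR7+Il12b- replicates 2 and 3 and both CCR7+Il12b+ samples (adjusted p up to 0.192), and also with cyclic loess normalization and with only the 2 groups compared. Acaa2, the thiolase that ends the mitochondrial cycle, read 7.06, 7.46 and 7.52, then 6.21, 6.29 and 6.17, then 5.93 and 6.40. The matured samples lay well below all immature ones and overlapped with each other. Acaa2 fell by 1.12 ± 0.15, or 2.18-fold (adjusted p = 0.000355), and by 1.18 ± 0.17, or 2.27-fold (adjusted p = 0.000261).

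Over the 10 members of mitochondrial beta-oxidation the median change was -0.55 in CCR7+Il12b- and -0.83 in CCR7+Il12b+. In the first group 7 fell and none rose, where 1 of the other 3 (Acadvl) stood at -0.00 and 2 (Acadl and Acads) at -0.22 and -0.18. In the second 8 fell and 1 rose. Over all genes 14.5% were called lower in the first group and 17.9% in the second. Among genes above the mark these shares were 22.1% and 27.1%.

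**Figure D2:**
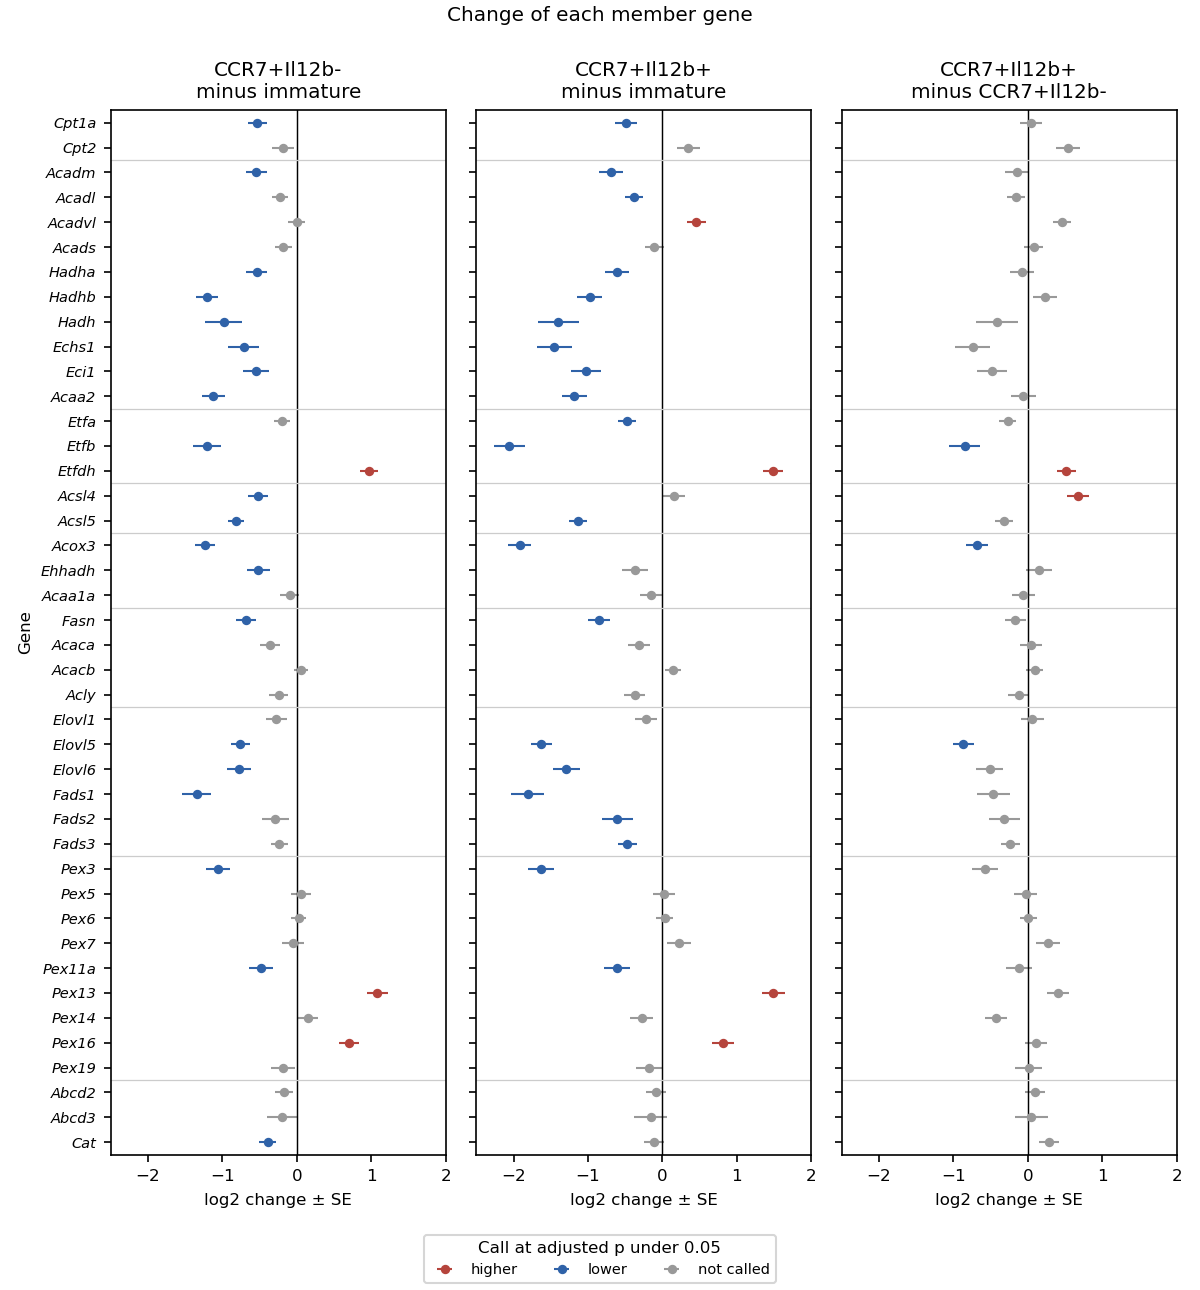
Points are the log2 changes of the 42 measured members and bars are ± 1 SE of the limma fit, in 3 panels for the 3 pairwise comparisons, with genes grouped by role. Colours give the call: 20 lower and 3 higher in the left panel, 21 lower and 4 higher in the middle, and 3 lower and 2 higher on the right.

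The 3 genes of electron transfer, which take electrons from the acyl-CoA dehydrogenases to ubiquinone, moved in opposite directions. Etfb, the beta subunit of the electron transfer flavoprotein, read 8.20, 8.52 and 8.75 in immature samples, 7.64, 7.29 and 6.91 in CCR7+Il12b-, and 6.45 and 6.42 in CCR7+Il12b+. The 3 groups formed separate steps. It fell by 1.21 ± 0.19, or 2.31-fold, in CCR7+Il12b- (adjusted p = 0.000774) and by 2.06 ± 0.21, or 4.16-fold, in CCR7+Il12b+ (adjusted p = 1.92e-05), the largest called change of any member. Etfdh, the oxidoreductase that hands those electrons to ubiquinone, read 6.88, 7.23 and 7.19, then 8.13, 8.02 and 8.06, then 8.67 and 8.51. The 3 groups were again separate, in rising order. Etfdh rose by 0.97 ± 0.12, or 1.96-fold (adjusted p = 0.000177), and by 1.49 ± 0.13, or 2.81-fold (adjusted p = 7.51e-06). Etfa, the alpha subunit that pairs with Etfb, changed by -0.20 ± 0.11 in CCR7+Il12b- (adjusted p = 0.209) and fell by 0.47 ± 0.12 in CCR7+Il12b+ (adjusted p = 0.00933), a call lost without CCR7+Il12b+ replicate 2 (adjusted p = 0.0682).

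Between the matured groups Etfb was lower by 0.85 ± 0.21, or 1.8-fold (adjusted p = 0.0336), and Etfdh higher by 0.52 ± 0.13, or 1.43-fold (adjusted p = 0.0407), in CCR7+Il12b+. The Etfb call was lost without immature replicate 2, CCR7+Il12b- replicate 1 or 2 or either CCR7+Il12b+ sample (adjusted p up to 0.144). That of Etfdh was kept with immature replicate 1 left out and lost without any other single sample (up to 0.192). With arrays centred on their medians both calls were lost, and that of Etfdh also with array weights, with an intensity trend and with only the 2 groups compared.

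The promoters of Etfb and Etfdh are shown because these partners in 1 electron path moved in opposite directions. Each holds a match to the NRF1 motif (GCGCANGCGC, both strands), a sequence bound by a regulator of nuclear genes for mitochondrial proteins, and capitals mark it. The windows are chr7:43443822-43444121 on the plus strand and chr3:79628718-79629017 on the minus strand of GRCm38.p6 in RefSeq.
Etfb: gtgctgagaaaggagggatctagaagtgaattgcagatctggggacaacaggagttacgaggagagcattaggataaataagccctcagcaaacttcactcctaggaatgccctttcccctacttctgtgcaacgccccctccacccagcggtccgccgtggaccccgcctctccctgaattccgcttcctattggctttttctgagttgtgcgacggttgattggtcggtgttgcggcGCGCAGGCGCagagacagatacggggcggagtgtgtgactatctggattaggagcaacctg
Etfdh: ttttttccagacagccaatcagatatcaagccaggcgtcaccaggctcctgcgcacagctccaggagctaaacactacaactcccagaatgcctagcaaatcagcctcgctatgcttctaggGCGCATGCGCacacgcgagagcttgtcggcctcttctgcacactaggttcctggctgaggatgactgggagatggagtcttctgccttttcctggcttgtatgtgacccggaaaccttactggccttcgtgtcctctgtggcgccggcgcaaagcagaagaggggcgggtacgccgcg
The match is GCGCAGGCGC with its first base at -11 in Etfb and GCGCATGCGC at -128 in Etfdh. This motif was held by 4 of the 38 members with a promoter (10.5%), namely Abcd3, Etfb, Etfdh and Fasn, against 4.6% of all promoters. It was present in 2 of 22 members that fell and 1 of 4 that rose. Another gene, 4930579G24Rik, starts 312 bases from Etfdh on the opposite strand, and its changes of -0.05 (adjusted p = 0.884) and 0.07 (adjusted p = 0.823) were not called.

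Of the acyl-CoA synthetases, which activate free fatty acids, Acsl5 and Acsl4 were measured. Acsl5 read 8.39, 8.55 and 8.64 in immature samples, 7.82, 7.63 and 7.70 in CCR7+Il12b-, and 7.39 and 7.40 in CCR7+Il12b+. The groups stood apart in that order. Acsl5 fell by 0.81 ± 0.11, or 1.76-fold (adjusted p = 0.000296), and by 1.13 ± 0.12, or 2.19-fold (adjusted p = 2.71e-05). Acsl4, which prefers arachidonate and other polyunsaturated chains, read 7.18, 7.67 and 7.60, then 7.07, 6.85 and 6.97, then 7.67 and 7.60. The CCR7+Il12b- samples were the lowest, and the CCR7+Il12b+ samples lay at the level of the upper immature ones. Acsl4 fell by 0.52 ± 0.14 in CCR7+Il12b- (adjusted p = 0.0172) and changed by 0.15 ± 0.15 in CCR7+Il12b+ (adjusted p = 0.482). The matured groups differed by 0.67 ± 0.15, or 1.59-fold (adjusted p = 0.0232). The first call was lost without immature replicate 2 or 3 or else CCR7+Il12b- replicate 2 (adjusted p up to 0.0872). The difference of the matured groups was lost as a call without CCR7+Il12b- replicate 2 or either CCR7+Il12b+ sample (up to 0.126), and with arrays centred on their medians.

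In the peroxisome, Acox3, an acyl-CoA oxidase of branched chains, read 9.48, 9.23 and 9.29 in immature samples, 8.26, 8.18 and 7.86 in CCR7+Il12b-, and 7.55 and 7.28 in CCR7+Il12b+. The 3 groups were separate and the gap from immature cells was wide against the spread within groups. Acox3 fell by 1.23 ± 0.14, or 2.35-fold (adjusted p = 8.76e-05), and by 1.92 ± 0.15, or 3.78-fold (adjusted p = 3.02e-06). It was lower in CCR7+Il12b+ than in CCR7+Il12b- by 0.68 ± 0.15, or 1.61-fold (adjusted p = 0.0206), a call lost without CCR7+Il12b- replicate 1 or 2 or CCR7+Il12b+ replicate 2 (adjusted p up to 0.1395), or with only the 2 groups compared. Ehhadh, the bifunctional hydratase and dehydrogenase, fell in CCR7+Il12b- by 0.52 ± 0.16 (adjusted p = 0.034). The mean of CCR7+Il12b- lay below the mark, which in its place gave a fall of at least 1.15-fold between the means. This bound takes no account of the SE, and immature replicate 1 (4.88) itself lay below the mark. The call of Ehhadh was lost without any 1 of these 5 samples, immature replicate 2 or 3 or any CCR7+Il12b- sample (adjusted p up to 0.1496). In CCR7+Il12b+, whose mean also lay below the mark, it was not called (adjusted p = 0.143). Acaa1a, the peroxisomal thiolase, was not called, with -0.10 (95% interval -0.391 to 0.195) and -0.16 (-0.484 to 0.171).

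For the synthesis of new chains 1 of 4 genes was called, lower in both matured groups (25%). Shares called lower were 14.5% and 17.9% over all genes, and 22.1% and 27.1% among genes above the mark. Fasn, the fatty acid synthase, read 7.31, 7.58 and 7.76 in immature samples, 6.87, 6.98 and 6.75 in CCR7+Il12b-, and 6.75 and 6.65 in CCR7+Il12b+. All matured samples were below all immature ones. Fasn fell by 0.68 ± 0.13, or 1.61-fold (adjusted p = 0.00277), and by 0.85 ± 0.14, or 1.8-fold (adjusted p = 0.000812). Acaca, the cytosolic acetyl-CoA carboxylase, changed by -0.36 (95% interval -0.655 to -0.0577, adjusted p = 0.0847) and -0.31 (-0.648 to 0.0195). A second row of Acaca, whose mean of 4.49 lay below the mark, gave -0.28 and -0.37. Acly, which makes cytosolic acetyl-CoA from citrate, changed by -0.25 (-0.52 to 0.0293) and -0.37 (-0.677 to -0.0631, adjusted p = 0.0655). Neither was called, although both were called lower in CCR7+Il12b+ with arrays centred on their medians. Acacb, the carboxylase at the mitochondrial surface, was not called and lay below the mark in immature and CCR7+Il12b- cells.

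Of the 6 members of elongation and desaturation, 3 fell in CCR7+Il12b- and 5 in CCR7+Il12b+, and the medians were -0.53 and -0.95. Shares called lower were 14.5% and 17.9% over all genes, and 22.1% and 27.1% among genes above the mark. Elovl5, the elongase of polyunsaturated chains, read 10.27, 10.17 and 10.22 in immature samples, 9.56, 9.62 and 9.19 in CCR7+Il12b-, and 8.65 and 8.53 in CCR7+Il12b+. The groups descended in 3 separate steps. Elovl5 fell by 0.76 ± 0.13, or 1.7-fold (adjusted p = 0.00124), and by 1.63 ± 0.14, or 3.09-fold (adjusted p = 5.98e-06). The matured groups differed by -0.87 ± 0.14, or 1.83-fold (adjusted p = 0.0041), and this was the one member whose call between them held under all 18 alternatives.

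Elovl6, which extends palmitate, read 6.24, 6.62 and 6.15, then 5.66, 5.77 and 5.24, then 5.11 and 4.97. Its 3 groups did not overlap. Elovl6 fell by 0.78 ± 0.16, or 1.72-fold (adjusted p = 0.00506), and by 1.29 ± 0.18, or 2.45-fold (adjusted p = 0.000219). Fads1, a front-end desaturase needed for arachidonate, read 7.26, 7.36 and 7.26, then 6.27, 6.18 and 5.39, then 5.60 and 5.36. CCR7+Il12b- replicate 3 lay among the CCR7+Il12b+ samples and the other 2 of its group lay higher. Fads1 fell by 1.35 ± 0.20, or 2.55-fold (adjusted p = 0.00059), and by 1.81 ± 0.22, or 3.51-fold (adjusted p = 7.84e-05). Fads2, the partner desaturase of the same path, changed by -0.29 (adjusted p = 0.299) and fell by 0.61 ± 0.20 in CCR7+Il12b+ (adjusted p = 0.0428). Fads3, a related gene, changed by -0.24 (adjusted p = 0.185) and fell by 0.47 ± 0.13 (adjusted p = 0.0168). Without immature replicate 2 or 3, CCR7+Il12b- replicate 1 or CCR7+Il12b+ replicate 1 the Fads2 call was lost (adjusted p up to 0.304), and without immature replicate 1 or either CCR7+Il12b+ sample that of Fads3 (up to 0.0669). Elovl1, an elongase of very long saturated chains, was not called, with -0.28 (95% interval -0.58 to 0.0262) and -0.22 (-0.558 to 0.119).

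**Figure D3:**
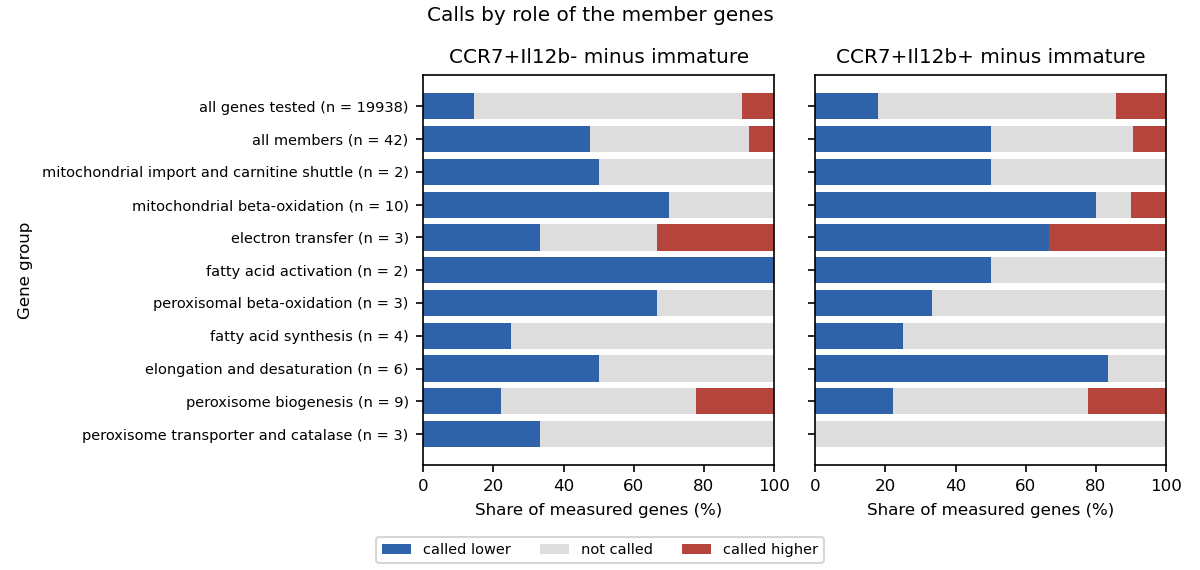
Bars give the share of measured genes called lower (blue), not called (grey) and called higher (red) for each role, for all 42 members and for all 19938 genes tested, in CCR7+Il12b- (left) and CCR7+Il12b+ (right) against immature cells. The share called lower is 47.6% and 50% of members beside 14.5% and 17.9% of all genes, and red appears with electron transfer and peroxisome biogenesis on both sides.

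The peroxins moved gene by gene. Pex3, the membrane anchor that receives newly made peroxisomal membrane proteins, read 6.87, 6.99 and 7.33 in immature samples, 6.24, 5.98 and 5.80 in CCR7+Il12b-, and 5.61 and 5.24 in CCR7+Il12b+. The 3 groups stood in separate falling steps. Pex3 fell by 1.06 ± 0.16, or 2.08-fold (adjusted p = 0.000668), and by 1.63 ± 0.18, or 3.1-fold (adjusted p = 3.27e-05). Pex16, which works with Pex3 in the same step, read 6.85, 7.08 and 7.16, then 7.72, 7.61 and 7.86, then 8.02 and 7.67. All matured samples were above all immature ones. Pex16 rose by 0.70 ± 0.13, or 1.62-fold (adjusted p = 0.00266), and by 0.81 ± 0.15, or 1.76-fold (adjusted p = 0.00124). Pex19, the chaperone of these membrane proteins, was not called, with -0.19 (95% interval -0.549 to 0.169) and -0.18 (-0.577 to 0.225).

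Pex13, a membrane component of the docking complex for matrix proteins, read 7.14, 7.42 and 7.40 in immature samples, 8.38, 8.32 and 8.51 in CCR7+Il12b-, and 8.59 and 9.03 in CCR7+Il12b+. All 3 groups were apart in rising order. Pex13 rose by 1.08 ± 0.14, or 2.12-fold (adjusted p = 0.000202), and by 1.49 ± 0.15, or 2.81-fold (adjusted p = 1.97e-05), and the matured groups differed by 0.41 without a call (adjusted p = 0.164). Its docking partner Pex14 changed by 0.15 in CCR7+Il12b- and -0.28 in CCR7+Il12b+ and was not called. The import receptors Pex5 (0.05, 95% interval -0.247 to 0.347, and 0.02, -0.311 to 0.353) and Pex7 (-0.05 and 0.22) were not called either. The same held for Pex6 (0.02, -0.195 to 0.241, and 0.03, -0.214 to 0.273), part of the motor that recycles Pex5. Pex11a, which acts in peroxisome division, read 5.06, 5.13 and 5.03, then 4.79, 4.71 and 4.26, then 4.70 and 4.23. No matured sample reached the immature ones, and both matured means lay below the mark. With the mark standing for these means, Pex11a was lower by at least 1.07-fold in each. This bound, 0.098 on the log2 scale, takes no account of the SE of 0.16 and 0.18. Both falls were called (adjusted p = 0.0481 and 0.0227). These calls were lost without any immature replicate or else CCR7+Il12b- replicate 2 or 3 (adjusted p up to 0.169), and without immature replicate 2 or else CCR7+Il12b+ replicate 2 (up to 0.242).

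Pex13 shares its upstream region with Pus10, a pseudouridine synthase gene that starts 109 bases away on the opposite strand. The window of Pex13 is shown because the genes on both of its sides rose. It spans chr11:23665834-23666133 on the minus strand of GRCm38.p6 in RefSeq, and capitals mark GC boxes.
Pex13: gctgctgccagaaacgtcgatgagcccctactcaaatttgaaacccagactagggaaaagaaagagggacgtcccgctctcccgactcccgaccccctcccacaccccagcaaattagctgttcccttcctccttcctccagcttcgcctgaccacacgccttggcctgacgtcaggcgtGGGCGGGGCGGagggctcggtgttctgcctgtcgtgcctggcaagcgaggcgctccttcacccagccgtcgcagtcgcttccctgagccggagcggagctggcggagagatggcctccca
The GC boxes begin at -70 and -65 and overlap. Pus10 was higher by 1.58 ± 0.11 in CCR7+Il12b- (adjusted p = 2.35e-06) and by 1.83 ± 0.12 in CCR7+Il12b+ (adjusted p = 8.27e-07). It was looked up after the values of Pex13 were known. In all, 7 members had such a divergent start within 500 bases. Beside Pex11a, Wdr93 starts 18 bases away, and its changes of 0.10 (adjusted p = 0.554) and 0.14 (adjusted p = 0.399) were not called. The partners of Elovl6 and Pex5 were not measured.

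A CCAAT box (CCAAT, both strands) was found in 18 of 38 members (47.4%), against 37.4% of all promoters, in 10 of 22 that fell and 2 of 4 that rose. The E box CACGTG was in 1 member, Elovl5 (7.15% of all promoters), and the sterol response motif TCACNCCAC in 1, Ehhadh (1.24%). The letters TCAAGGTCA (estrogen-related receptors, 0.423% of all promoters), AGGTCANAGGTCA (peroxisome proliferator-activated receptors, 0.0396%) and GGGANTTTCC (NF-kappaB, 0.411%) were in no member's window. The first pair of these share AGGTCA. These are matches of letters in a short window and not measured sites.

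The peroxisomal transporters and catalase completed the set. Cat, which breaks down hydrogen peroxide, read 9.86, 10.17 and 10.21 in immature samples, 9.73, 9.76 and 9.56 in CCR7+Il12b-, and 9.99 and 9.95 in CCR7+Il12b+. Only the CCR7+Il12b- samples lay below all immature ones. Cat fell by 0.39 ± 0.12 there (adjusted p = 0.0344), a call lost without immature replicate 2 or 3 or any CCR7+Il12b- sample (adjusted p up to 0.146) or with cyclic loess normalization, and changed by -0.11 in CCR7+Il12b+ (adjusted p = 0.571). Abcd3, the importer of branched and long-chain acyl groups, was not called, with -0.20 (95% interval -0.64 to 0.236) and -0.15 (-0.644 to 0.335). Abcd2, for very long chains, lay below the mark in all 3 groups.

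The direct comparison of the matured groups called few members. In CCR7+Il12b+ against CCR7+Il12b- cells 2 rose (4.76%), Etfdh and Acsl4, where 2.61% of all genes were called higher. A further 3 fell (7.14%), Elovl5, Etfb and Acox3, where 4.47% of all genes were called lower. Every CCR7+Il12b+ sample lay above every CCR7+Il12b- sample for 6 members and below for 13, against 15.3% and 14.3% of all genes. The median difference was -0.06, beside 0.02 over all genes. The split of calls moved with the scaling, to 4 higher and 3 lower after quantile normalization and to 0 higher and 2 lower with arrays centred on their medians. The remaining 37 members ran from -0.74 (Echs1) to 0.54 (Cpt2). For these a missing call does not show that the groups were alike.

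Of the 21 members that fell in CCR7+Il12b+, CCR7+Il12b- replicate 3 was the lowest of its group for 13 (61.9%), beside 2372 of 3567 genes called lower (66.5%). Without it 7 members were called lower between the matured groups, and without CCR7+Il12b- replicate 1 or 2 or CCR7+Il12b+ replicate 2 only 1. Against immature cells the count of 20 members lower in CCR7+Il12b- dropped to 11 without immature replicate 2 or 3 or else CCR7+Il12b- replicate 2, and to 12 without CCR7+Il12b- replicate 3. The 3 members that rose there, Etfdh, Pex13 and Pex16, were called in each of these. The count of 21 members lower in CCR7+Il12b+ dropped to 17 without immature replicate 2 or 3.

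**Figure D4:**
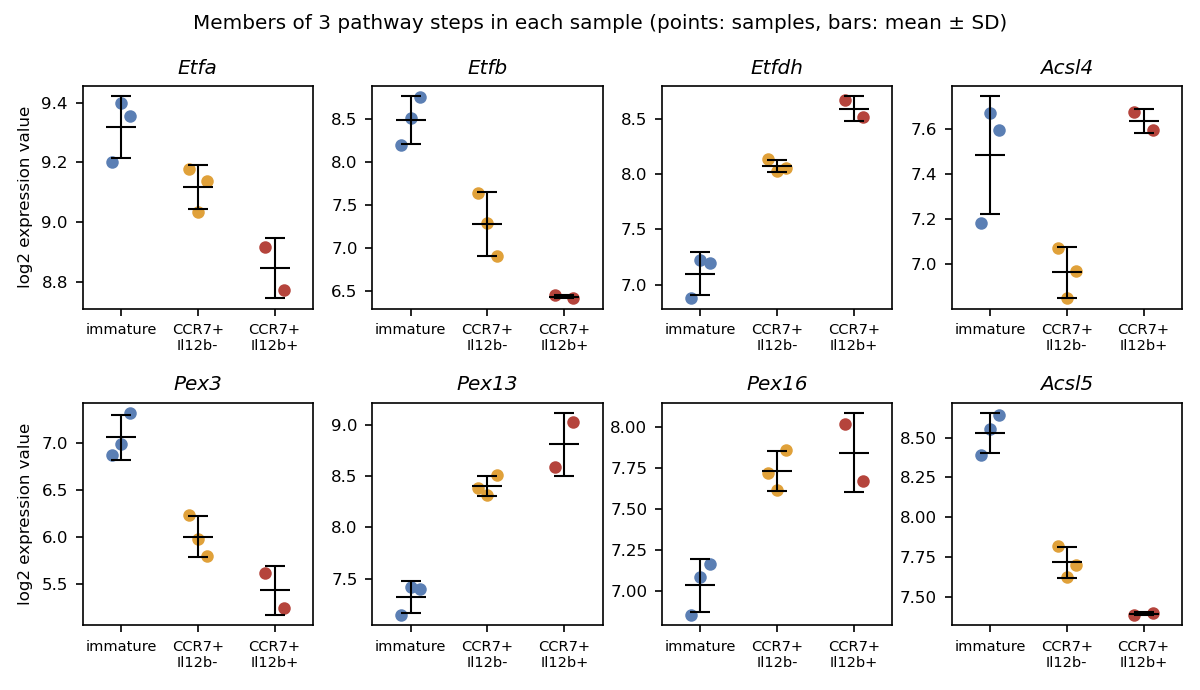
Points are the log2 values of single samples for 8 members of electron transfer, fatty acid activation and peroxisome assembly, by group, with a separate vertical axis per gene that does not start at 0. Long bars are means and short bars ± 1 SD (n = 3, 3 and 2). Etfb and Pex3 descend and Etfdh and Pex13 ascend over the 3 groups, while Acsl4 is low in CCR7+Il12b- alone.

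The wider pathway was read from 4 further lists drawn up from known roles, likewise with earlier results of these data known. Their counts stand beside 9.1% of all genes called higher and 14.5% lower in CCR7+Il12b-, and 14.1% and 17.9% in CCR7+Il12b+. Among genes above the mark 22.1% and 27.1% were called lower. Of 24 other measured genes of beta-oxidation 2 rose (8.33%) and 7 fell (29.2%) in CCR7+Il12b-, and 1 rose (4.17%) and 7 fell (29.2%) in CCR7+Il12b+, with medians of -0.18 and -0.17. Hsd17b10, a mitochondrial dehydrogenase of short branched chains and steroids, fell by 0.996 ± 0.19 (adjusted p = 0.00319) and fell by 2.13 ± 0.22 (adjusted p = 1.88e-05). Acat1, a mitochondrial thiolase of ketone body metabolism, fell by 0.80 ± 0.12 (adjusted p = 0.000519) and by 1.68 ± 0.13 (adjusted p = 2.37e-06). Hibch, of valine breakdown, was at least 1.8-fold lower in both matured groups, whose means lay below the mark. Acot9, an acyl-CoA thioesterase, rose by 0.74 ± 0.16 (adjusted p = 0.00633) and by 0.93 ± 0.18 (adjusted p = 0.00195).

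Among 42 other measured peroxisome genes 4 rose (9.52%) and 11 fell (26.2%) in CCR7+Il12b-, and 4 rose (9.52%) and 10 fell (23.8%) in CCR7+Il12b+. The shares called lower lay above those of all genes (14.5% and 17.9%). Of the 42 genes 33 passed the mark, so these shares are not like for like with those of the genes above the mark. The medians were -0.09 and -0.00. Idh1, which makes NADPH in the cytosol and peroxisome, rose by 1.81 ± 0.12, or 3.51-fold (adjusted p = 2.68e-06), and by 2.56 ± 0.14, or 5.89-fold (adjusted p = 2.44e-07). Dnm1l, a dynamin of mitochondrial and peroxisomal fission, rose by 0.98 ± 0.14 (adjusted p = 0.000389) and by 1.73 ± 0.15 (adjusted p = 6.43e-06). Crot, which exports shortened chains as carnitine esters, fell by 1.31 ± 0.15 (adjusted p = 9.75e-05) and by 2.12 ± 0.16, or 4.36-fold (adjusted p = 2.54e-06). Ech1, a dienoyl-CoA isomerase, fell by 1.14 ± 0.18 (adjusted p = 0.00083) and by 1.74 ± 0.20 (adjusted p = 4.74e-05).

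Of 36 other measured genes of synthesis and esterification none rose and 11 fell (30.6%, beside 14.5% of all genes) in CCR7+Il12b-, and 3 rose (8.33%) and 10 fell (27.8%, beside 17.9%) in CCR7+Il12b+, with medians of -0.13 and -0.12. Ndufab1, the mitochondrial acyl carrier protein and a subunit of respiratory complex I, fell by 1.24 ± 0.18 (adjusted p = 0.000461) and by 1.76 ± 0.20 (adjusted p = 3.92e-05). Agpat3, of phospholipid synthesis, fell by 0.92 ± 0.11 (adjusted p = 0.000135) and by 1.56 ± 0.12 (adjusted p = 2.61e-06). Hsd17b12, the ketoreductase of elongation that works beside the Elovl enzymes, fell by 0.84 ± 0.22 (adjusted p = 0.0163) and by 1.33 ± 0.24 (adjusted p = 0.00136). Lpin1, a phosphatidate phosphatase, fell by 0.64 ± 0.13 (adjusted p = 0.00517) and by 1.31 ± 0.15 (adjusted p = 4.6e-05).

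Among 51 measured genes of uptake, activation and regulation 2 rose (3.92%) and 11 fell (21.6%) in CCR7+Il12b-, and 6 rose (11.8%) and 11 fell (21.6%) in CCR7+Il12b+. The share that fell lay above that of all genes (14.5% and 17.9%). Of the 51 genes 41 passed the mark, so this share is not like for like with that of the genes above the mark (22.1% and 27.1%). The medians were 0.03 and 0.00. Fabp5, a cytosolic fatty acid binding protein, rose by 2.36 ± 0.15, or 5.14-fold (adjusted p = 1.5e-06), and by 2.49 ± 0.17, or 5.63-fold (adjusted p = 1.06e-06). Cd36, a scavenger receptor that takes up long chains, fell by 0.62 ± 0.15 (adjusted p = 0.0116) and by 1.91 ± 0.17, or 3.77-fold (adjusted p = 6.68e-06). Lipa, the lysosomal acid lipase, fell by 0.74 ± 0.16 (adjusted p = 0.00628) and by 2.12 ± 0.18, or 4.35-fold (adjusted p = 5.38e-06). Plin2, a coat protein of lipid droplets, fell by 1.05 ± 0.15 (adjusted p = 0.000396) and by 1.60 ± 0.16 (adjusted p = 1.97e-05). Cd36 and Lipa were also lower in CCR7+Il12b+ than in CCR7+Il12b-, with differences of -1.29 ± 0.17 (adjusted p = 0.00117) and -1.38 ± 0.18 (adjusted p = 0.00122). Between the matured groups 2 of the 51 genes were called higher (3.92%) and 3 lower (5.88%), beside 2.61% and 4.47% of all genes. Of the other lists, 2 beta-oxidation genes (8.33%) and 3 synthesis genes (8.33%) were called lower there and none higher. Among the other peroxisome genes 3 were called higher and 3 lower (7.14% each).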

How the data were processed

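RNA of 8 sorted samples was hybridised to 1 array each. Per the labels' protocols, 3 or 20 ng of RNA went through 2 rounds of amplification and biotin labelling, and the sources used here do not tell which amount belongs to which sample. The deposited values are log2 expression per probe set, which the authors computed with RMA (R package oligo), according to the submitters' processing notes. Tool versions and genome build: not given in the sources used. RMA usually brings arrays to 1 distribution, which hides any change in total RNA per cell. The array medians of the deposited values still ran from 5.253 to 5.456.

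Of 35556 rows, 21789 carried exactly 1 gene symbol in the platform annotation, 1621 several and 12146 none, and only the first were used. Where several rows named 1 gene (999 genes), that with the highest mean was kept, leaving 19938 genes, with no filter on low values. The background mark of 4.98 is the 95th percentile of the means of 1194 olfactory and vomeronasal receptor genes. A called fall into a group below the mark is given as a bound, with the mark standing for that group. The bound is a difference of means and takes no account of their spread.

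All 8 samples entered 1 linear model of the 3 groups, fitted by lmFit and eBayes of limma 3.58.1 (R 4.3.3), with 5.86 prior and 5 residual degrees of freedom. All p-values are two-sided, with Benjamini-Hochberg adjustment over all genes, and 95% intervals came from the same fit. The code was tested on simulated data. Values in every sample are given for members called in any comparison with at least 1.5-fold change, the 20 largest, and for Cat, which was added after its values were seen. Of each further list the 4 called genes with the largest change are named. The members and lists were chosen with earlier results of these data known. Alternatives were a replicate block, each sample left out, centring, quantile and cyclic loess normalization, filters on low genes, the mean of all rows of a gene, array weights, an intensity trend and fits of the 2 groups compared. Promoters came from a RefSeq table of GRCm38.p6 that held 38 of the 42 measured members. The number of arrays limits the precision.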

Additional observations from a re-analysis of the deposited data

Results flagged for a closer look

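There were 5 members that differed between the matured groups themselves, by a limma test of that difference, with changes given as CCR7+Il12b+ minus CCR7+Il12b- on the log2 scale. Elovl5 differed by -0.868, Etfb by -0.846 and Acox3 by -0.684. Acsl4 differed by 0.672 and Etfdh by 0.519. The groups hold 2 and 3 samples and did not overlap for any of these genes. The Elovl5 call was kept under all 18 alternatives, and the other 4 calls were lost in 4 (Acox3), 5 (Acsl4), 7 (Etfb) and 12 (Etfdh) of them.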

How the results depend on the processing

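No called change of a member reversed under any of the alternatives run. Of 23 calls in CCR7+Il12b- against immature cells 13 were kept in every alternative, 10 were lost in some and 3 members were gained, and in CCR7+Il12b+ 16 of 25 were kept, 9 lost and 4 gained. With arrays centred on their medians, where the median of all genes moved from 0.0608 to -0.0382 and from 0.0932 to -0.0466, the median change of the members was -0.423 and -0.515 in place of -0.324 and -0.375. Leaving out 1 sample moved these medians over -0.426 to -0.3 and -0.439 to -0.321, and that between the matured groups over -0.117 to -0.0341. Members lower in CCR7+Il12b- (20) ranged from 11 to 19. Those lower in CCR7+Il12b+ (21) became 17 without immature replicate 2 or 3. A fit without 1 CCR7+Il12b+ sample leaves 1 in that group, and its count of members lower there is not given. Members lower between the matured groups (3) ranged from 1 to 7 and members higher between them (2) from 0 to 2. Called genes of the other beta-oxidation list (12) ranged from 6, without immature replicate 2 or 3, to 13. The number 2 of members higher between the matured groups became 0 with centring, 4 with quantile normalization, and 1 with array weights, with an intensity trend and with only the 2 groups compared. The labels do not say whether replicate numbers pair samples, and deviations of same-numbered samples correlated at -0.169 to 0.216, which does not settle it. With the replicate number as a block, 17 members were lower in CCR7+Il12b- and 20 in CCR7+Il12b+, and 0 were higher and 3 lower between the matured groups, and the calls of Cat, Eci1 and Ehhadh in CCR7+Il12b-, of Acadl in CCR7+Il12b+ and of Acsl4, Etfb and Etfdh between the matured groups were lost. For members near or below the mark the signal over background limits the fold.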
